A study of Mus musculus with 11 samples.

Results

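Dnmt3a2, the shorter isoform of the DNA methyltransferase Dnmt3a, had been put back into mouse embryonic stem (ES) cells without Dnmt3a and Dnmt3b (DKO), and the resulting line was set against DKO. The comparison rests on 2 of the 11 libraries of the series, 1 in each arm. It covers the 12760 of 24016 genes that reached 1 RPKM (reads per kilobase of transcript and per 1 M mapped reads) in either library. All lines were J1 ES cells (strain 129S4/SvJae) kept in serum and LIF over a layer of irradiated embryonic fibroblasts. The groups used beside the 2 arms were WT, DKO+Dnmt3a1, DKO+Dnmt3b1 and TKO, which lacks Dnmt1 as well (1 library each), and TKO+Dnmt3a2 (2 libraries). TKO+Dnmt3a1 (2 libraries) and TKO+Dnmt3b1 (1 library) served for the spread and for ranges. The labels name neither the construct nor the promoter that drove the enzyme, and do not say whether a line is 1 clone, so that a line here stands for its genotype. Whether the 2 libraries of TKO+Dnmt3a1 or TKO+Dnmt3a2 are separate cultures is not stated either. The p-values measure the spread between such libraries, which may be technical.

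Dnmt3a and Dnmt3b place methyl groups on cytosines of CG dinucleotides that carry none, and Dnmt1 copies the pattern to the new strand after replication. Cells that keep Dnmt1 but lack Dnmt3a and Dnmt3b lose methylation slowly with passage. Dnmt3a2 starts at an internal promoter of the Dnmt3a gene, lacks the amino-terminal stretch of Dnmt3a1 and is the main form in ES cells. Promoter methylation is best known for silencing germline genes, X-linked testis genes and 1 allele of imprinted genes.

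Read totals inferred from the smallest steps between RPKM values were 29.32 M reads in DKO and 28.54 M in DKO+Dnmt3a2, and 21.7 to 32.78 M in the 9 other libraries. Transcripts of the ES cell factors were abundant in both arms: Pou5f1 (Oct4) read 553 RPKM in DKO and 716 RPKM in DKO+Dnmt3a2, Sox2 265 and 277 RPKM, and Nanog 164 and 162 RPKM. DKO+Dnmt3a2 had the fewest genes at 1 RPKM, 11805 against 12478 in DKO and 12162 to 12936 in the others. The lines also differed in Y-linked RNA. Ddx3y, an RNA helicase gene of the Y chromosome, read 6.46 RPKM in DKO and 21.1 RPKM in DKO+Dnmt3a2 but 0.394 RPKM in WT and 0.863 RPKM in TKO.

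Dnmt3a transcripts read 3.63 RPKM in DKO, 11.4 RPKM in DKO+Dnmt3a2, 17.6 RPKM in DKO+Dnmt3a1 and 22.7 RPKM in WT. DKO was the lowest of the 11 libraries for this gene, and DKO+Dnmt3a2 stood between DKO and WT. The log2 difference between the arms was 1.52 ± 0.46 (SE; limma, Benjamini-Hochberg adjusted p = 0.179). Dnmt3b, which is knocked out in both arms, read 5.68 RPKM in DKO, 14.7 RPKM in DKO+Dnmt3a2, 13.3 RPKM in DKO+Dnmt3a1 and 25.03 RPKM in WT. A gene has 1 value in the table, so that RNA left by a knock-out allele cannot be told from RNA of an intact or added copy. The maintenance enzyme Dnmt1 read 74.5 RPKM in DKO and 63.1 RPKM in DKO+Dnmt3a2. Dnmt3l, an inactive partner that stimulates Dnmt3a, read 140 and 252 RPKM, a difference of 0.85 ± 0.25 (limma, adjusted p = 0.178). Of 10 DNA methyltransferases and cofactors these 2 deleted enzymes alone were 2-fold higher, and 0 were 2-fold lower (median log2 difference 0.48).

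Transcripts of feeder fibroblasts and of macrophages were lower in DKO+Dnmt3a2 than in DKO, and every difference below has to be read with this beside it. The 30 fibroblast markers summed to 1271 RPKM in DKO and 410.5 RPKM in DKO+Dnmt3a2, against 788.6 to 4849 RPKM in the other 9 libraries. The 20 macrophage markers summed to 119 and 13.1 RPKM, against 43.3 to 334.8 RPKM elsewhere. For both sums DKO+Dnmt3a2 was the lowest library, while DKO lay inside the range of the others. In DKO+Dnmt3a1 the sums were 1041 and 43.3 RPKM. In bulk RNA fewer cells of a type cannot be told from less RNA per cell. The part of these cells in the differences of other genes was not tested.

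Lyz2, the lysozyme of macrophages and other myeloid cells, had the largest difference of any gene at 1 RPKM. It read 63.3 RPKM in DKO and 0.066 RPKM in DKO+Dnmt3a2, and between 12.9 RPKM (WT) and 193 RPKM (TKO+Dnmt3b1) in the 9 other libraries. It fell by 6.82 ± 0.27 on the log2 scale (limma, Benjamini-Hochberg adjusted p = 0.00588). The complement genes C1qa and C1qc and the signalling adaptor Tyrobp read 4.26, 2.65 and 3.30 RPKM in DKO and were listed at 0 in DKO+Dnmt3a2. Of the 20 macrophage markers, 8 were listed at 0 in that library, against 0 in DKO and at most 1 in any other. Of the 12 macrophage markers at 1 RPKM or more in either arm, 10 reached it in DKO alone, and 11 were at least 2-fold lower (median log2 difference −2.43, and −1.74 over all 20).

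Among the fibroblast markers 26 of 30 were at least 2-fold lower in DKO+Dnmt3a2, with a median log2 difference of −1.99. Col1a1, a chain of the main fibroblast collagen, read 83.1 RPKM in DKO and 10.9 RPKM in DKO+Dnmt3a2, and 30.001 to 235 RPKM in the other 9 libraries. Of the 12 largest drops among genes without predicted or accession-like names, 7 were those of matrix genes: Fbln2 (78.2 and 4.05 RPKM), Col1a2 (58.0 and 3.05 RPKM), Col6a1 (16.7 and 0.745 RPKM), Col6a3 (log2 difference −3.68), Tnc (47.0 and 1.90 RPKM), Bgn (113 and 8.08 RPKM) and the matrix protease gene Mmp3 (23.1 and 0.135 RPKM). AF357359 and 1700013H16Rik, which that rule leaves out, had larger drops than the collagens. DKO+Dnmt3a2 was the lowest of 11 libraries for 27 of the 30 markers. The contractile genes Tagln (28.9 and 29.4 RPKM) and Acta2 (15.7 and 15.2 RPKM) were near equal in the arms, and the intermediate filament gene Vim read 188 and 106 RPKM. Of the 6 endothelial markers at 1 RPKM, 2 were 2-fold lower, the tight junction gene Cldn5 (4.03 and 0.440 RPKM) and Vwf, which encodes von Willebrand factor (3.45 and 0.794 RPKM). Both were highest of the 11 libraries in DKO.

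**Figure D1:**
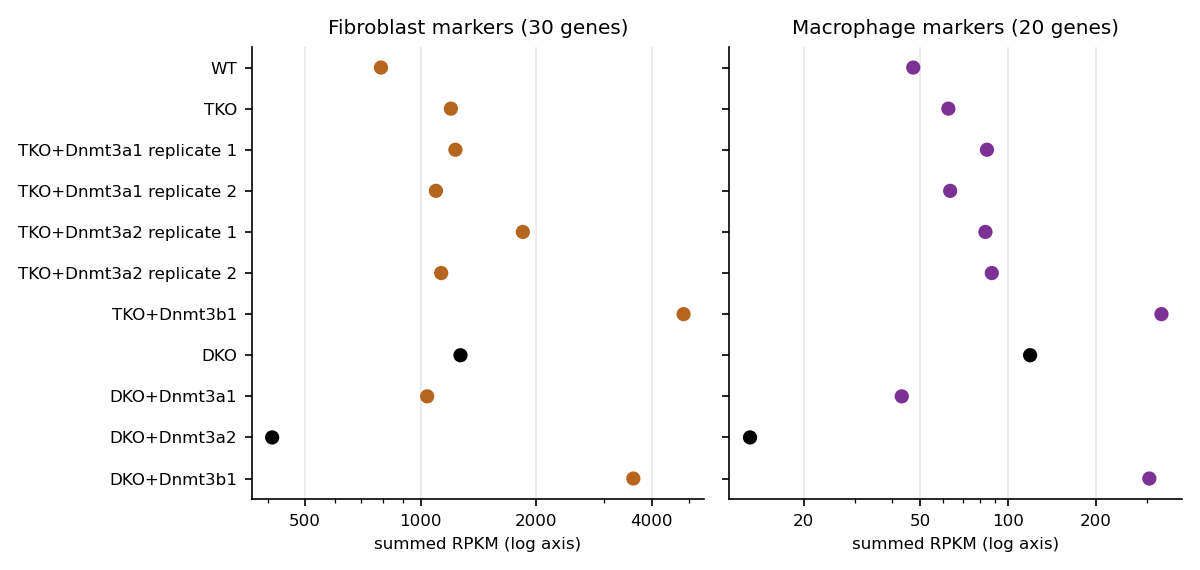
Summed RPKM (log axes) of the 30 fibroblast and 20 macrophage markers in each of the 11 libraries, 1 point a library, with DKO and DKO+Dnmt3a2 in black. DKO+Dnmt3a2 is the lowest library on both sides (410.5 and 13.1 RPKM), and the 2 Dnmt3b1 libraries are the highest.

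To show which differences followed these RNAs across the series, genes were set apart that stood at least 2-fold higher in the 2 Dnmt3b1 libraries, where both marker sums were highest, than in the 7 libraries other than these and the 2 arms. They numbered 747 among the 12760, and 29 of the 30 fibroblast and 10 of the 12 macrophage markers were among them. This Dnmt3b1 set also holds genes on which Dnmt3b1 itself may act, so that it is wider than feeder RNA. The 2-fold cut also leaves out genes with smaller differences, so that genes outside it may still hold feeder RNA. The 12005 genes in neither this set nor the fibroblast, macrophage and endothelial lists are called genes outside the feeder sets below.

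In DKO+Dnmt3a2, 324 of 12760 genes (2.54%) were at least 2-fold higher than in DKO and 1314 (10.3%) at least 2-fold lower, on the scale log2(RPKM + 0.5) used for every difference. The median difference was −0.10. Counts of list members past 2-fold given below are to be read beside these shares of all genes. Genes outside the feeder sets made up 256 of the higher and 1059 of the lower ones, which is 2.13% and 8.82% of the 12005. Among the 747 genes of the Dnmt3b1 set 68 were higher and 251 lower (9.1% and 33.6%), with a median of −0.59. Between the 2 libraries of TKO+Dnmt3a2, which have 1 genotype, 252 and 266 of 13172 genes (1.91% and 2.02%) passed the same rule, and between those of TKO+Dnmt3a1 212 and 101 of 12898 (1.64% and 0.783%). The lower genes thus outnumbered those of both same-genotype pairs, and the higher genes did so by a smaller margin. Scaling moves this balance. Of the genes past 2-fold 19.8% were higher, against 36.2% after quantile normalization (492 higher, 868 lower) and 29.5% after median ratio scaling (468 and 1120), which moved the median of all genes from −0.10 to 0.02 and 0.01.

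limma, with its spread taken from the 2 lines that have 2 libraries, called 4 of 14229 genes lower (0.0281%) and 0 higher (0.0%), out of 1947 lower and 841 higher at an unadjusted p under 0.05. The called genes were Lyz2, AF357359, Mir1906-1 and Mir1906-2. With microRNA and small nucleolar RNA genes left out, an alternative added after the data were seen, limma called 147 of 13775 genes lower (1.07%) and 18 higher (0.131%), of which 83 and 16 lay outside the feeder sets. Of the 4 genes, 2 were tested there, Lyz2 and AF357359, and both were called. Small RNA genes were left out by name, and AF357359, itself a short RNA, stayed in for that reason. Without TKO+Dnmt3a2 replicate 1 or replicate 2 limma called 0 genes, and without TKO+Dnmt3a1 replicate 1 or replicate 2 it called Lyz2 alone. None of these libraries is in an arm, so that they change the spread and leave the differences as they are.

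**Figure D2:**
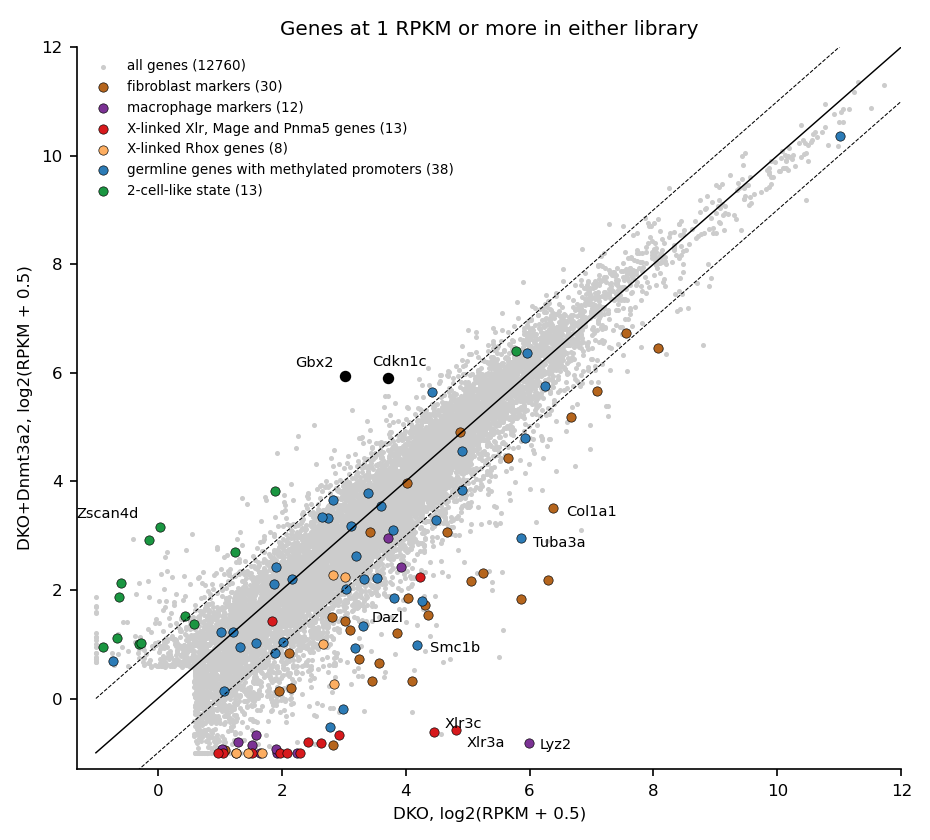
RPKM in DKO+Dnmt3a2 against DKO on log2(RPKM + 0.5) axes for the 12760 genes at 1 RPKM or more in either library, with 6 gene lists in colour. The solid line marks equal values and the dashed lines a 2-fold difference. Most fibroblast, macrophage and X-linked genes lie below the lower dashed line, and 11 of the 13 2-cell-like genes lie above the upper one.

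The extremes lay in both arms. Of the 1059 lower genes outside the feeder sets, DKO was the highest of the 11 libraries for 434 (41.0%) and DKO+Dnmt3a2 the lowest for 506 (47.8%), against 11.9% and 18.6% of all genes. Of the 324 higher genes DKO was the lowest library for 151 (46.6%, all genes 10.8%) and DKO+Dnmt3a2 the highest for 135 (41.7%, all genes 9.33%). These positions use the values that chose the genes and are given as a description.

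Among X-linked testis genes 13 Xlr, Mage and Pnma5 genes of 26 in the table reached 1 RPKM, 11 of them in DKO alone. These 11 had to be lower in DKO+Dnmt3a2, so that the 12 of 13 past 2-fold and their median of −3.08 are a description. The median was −1.99 over the 22 genes above 0 in an arm. None of the 13 belonged to the feeder sets, and 6 were listed at 0 in DKO+Dnmt3a2. Xlr3a, of the X-linked lymphocyte-regulated family, read 27.7 RPKM in DKO and 0.169 RPKM in DKO+Dnmt3a2. It read 0.872 RPKM in WT, 0.871 RPKM in DKO+Dnmt3a1, 1.60 RPKM in DKO+Dnmt3b1 and 25.7 RPKM in TKO. DKO and TKO were thus high for it, and the 3 lines with an enzyme put back into DKO were at 1.60 RPKM or less. The difference of −5.40 ± 0.51 did not pass limma's test over all genes (Benjamini-Hochberg adjusted p = 0.063) and passed without small RNA genes (adjusted p = 0.018).

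Its copies Xlr3c (21.5 and 0.154 RPKM) and Xlr3b (7.07 and 0.129 RPKM) were also highest of all libraries in DKO, as was Xlr5c (5.72 and 0.065 RPKM). Xlr4a read 4.40 RPKM in DKO and was listed at 0 in DKO+Dnmt3a2. Copies of these genes share reads, so that their single values are uncertain. The cancer-testis gene Magea4 read 4.89 and 0.073 RPKM, and 0.160 RPKM in WT. Pnma5 (18.3 and 4.19 RPKM) stayed above its WT level of 2.27 RPKM. The 1 member within 2-fold was Mageb16 (3.10 and 2.20 RPKM). In the fit without small RNA genes limma called 5 of the 13 lower, against 1.07% of all genes. They were Xlr3a, Xlr3b, Xlr3c, Xlr5c and Magea4, which all reached 1 RPKM in DKO alone. The Xlr3 copies share reads, so that these calls are not 5 separate observations and their count is a description. Efhc2, a gene of the X chromosome outside this list and among the 12 largest drops outside the feeder sets, read 17.0 RPKM in DKO, 0.939 RPKM in DKO+Dnmt3a2 and 0.742 RPKM in WT.

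The Rhox homeobox cluster, also X-linked and active in gonad and placenta, had 8 of 28 members at 1 RPKM, 5 of them in DKO alone. Of the 8, 6 were 2-fold lower (median −2.26), a count this choice favours. The median was −0.95 over the 20 genes above 0 in an arm and −1.23 over the 4 at 5 RPKM. Rhox1 read 6.66 RPKM in DKO, 0.710 RPKM in DKO+Dnmt3a2, 0.902 RPKM in WT and 12.3 RPKM in TKO. The copies Rhox2a, Rhox2e, Rhox2g and Rhox2h, which share reads, read 1.90 to 2.715 RPKM in DKO and were listed at 0 both in DKO+Dnmt3a2 and in DKO+Dnmt3a1. Rhox6 (6.63 and 4.34 RPKM) and Rhox9 (7.65 and 4.22 RPKM) were lower by less than 2-fold and stayed above their WT levels of 1.73 and 1.66 RPKM. The members named here were therefore divided between those at or below WT and those above it. The remaining 2-fold lower member is not reported here. In the fit without small RNA genes 5 of the 8 were called lower, against 1.07% of all genes. They were Rhox1 and the Rhox2 copies, the 5 that reached 1 RPKM in DKO alone. Since the copies share reads, the calls are not 5 separate observations, and the count is a description. The X chromosome as a whole had a median difference of −0.05, and the autosomal medians ran from −0.16 to −0.03.

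Of 38 germline genes known for methylated promoters, 15 were 2-fold lower (39.5%, against 10.3% of all genes) and 2 higher (5.26%, against 2.54%). Their median was −0.60. None of the 38 belonged to the Dnmt3b1 set. Smc1b, the meiotic cohesin subunit, read 17.7 RPKM in DKO and 1.47 RPKM in DKO+Dnmt3a2, and 8.54 RPKM in WT, 1.81 RPKM in DKO+Dnmt3a1 and 2.79 RPKM in DKO+Dnmt3b1. The testis tubulin genes Tuba3a (57.6 and 7.24 RPKM, WT 17.0 RPKM) and Tuba3b (6.35 and 0.199 RPKM, WT 0.584 RPKM), close copies whose reads may be shared, and the testis dipeptidase gene Dpep3 (7.40 and 0.372 RPKM, WT 2.60 RPKM) also ended below WT. Dazl, a germ cell RNA-binding protein, read 18.7 and 2.96 RPKM, with 8.73 RPKM in WT. These genes were thus lower in DKO+Dnmt3a2 than in the line that never lost the enzymes.

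Meiotic chromosome axis genes were split: Hormad2 (9.47 and 2.03 RPKM), Hormad1 (22.01 and 9.21 RPKM) and the cohesin gene Stag3 (29.4 and 13.9 RPKM) were 2-fold lower, while Sycp3 (10.01 and 13.3 RPKM) and Sycp1 (3.15 and 3.795 RPKM) were not. Dppa3 (Stella), which is active in germ cells and naive ES cells, read 60.2 RPKM in DKO, 27.4 RPKM in DKO+Dnmt3a2 and 11.7 RPKM in WT. The 2 genes 2-fold higher were Tdrd1, a gene of the piRNA pathway (0.103 and 1.12 RPKM), and Dppa2, an ES and germ cell factor (21.0 and 49.9 RPKM). Some germline genes differed by less than 2-fold, among them the piRNA pathway genes Ddx4 (6.604 and 12.1 RPKM), Piwil2 (8.22 and 8.53 RPKM) and Mael (8.63 and 5.70 RPKM). limma called 2 of the 38 lower in the fit without small RNA genes, Smc1b (−3.21 ± 0.34) and Tuba3a (−2.91 ± 0.38), and 0 in the fit over all genes. The former fit called 1.07% of its genes lower.

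The promoters of the lower germline and X-linked genes differed in CG content, which is why those of 3 of them are printed beside that of Zscan4d, a gene of the 2-cell-like state that was higher. Each is the window from 250 bases before to 50 bases after the RefSeq start (GRCm38.p6, minus strand), with CG dinucleotides, the sites the enzyme methylates, in capitals. They lie at chr17:50293571-50293870 (Dazl, 28 CG), chr15:85131908-85132207 (Smc1b, 29 CG), chrX:73097046-73097345 (Xlr3a, 5 CG) and chr7:11166099-11166398 (Zscan4d, 3 CG).
Dazl: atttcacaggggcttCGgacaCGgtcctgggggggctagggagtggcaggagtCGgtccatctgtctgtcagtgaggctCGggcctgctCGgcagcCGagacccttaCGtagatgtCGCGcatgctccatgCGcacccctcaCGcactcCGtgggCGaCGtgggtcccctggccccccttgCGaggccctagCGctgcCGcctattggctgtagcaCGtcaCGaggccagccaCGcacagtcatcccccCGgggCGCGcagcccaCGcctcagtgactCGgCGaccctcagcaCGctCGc
Smc1b: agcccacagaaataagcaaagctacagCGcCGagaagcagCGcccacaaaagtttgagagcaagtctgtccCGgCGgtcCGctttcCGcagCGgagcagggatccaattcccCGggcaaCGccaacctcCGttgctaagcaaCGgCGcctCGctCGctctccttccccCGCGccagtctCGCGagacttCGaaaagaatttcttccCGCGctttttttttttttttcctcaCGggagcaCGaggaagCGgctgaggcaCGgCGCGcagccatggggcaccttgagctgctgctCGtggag
Xlr3a: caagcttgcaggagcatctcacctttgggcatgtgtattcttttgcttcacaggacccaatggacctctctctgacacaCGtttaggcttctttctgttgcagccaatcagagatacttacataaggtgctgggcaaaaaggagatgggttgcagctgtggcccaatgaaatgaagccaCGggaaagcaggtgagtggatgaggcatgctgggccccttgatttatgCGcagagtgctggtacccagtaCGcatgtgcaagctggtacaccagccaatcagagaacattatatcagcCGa
Zscan4d: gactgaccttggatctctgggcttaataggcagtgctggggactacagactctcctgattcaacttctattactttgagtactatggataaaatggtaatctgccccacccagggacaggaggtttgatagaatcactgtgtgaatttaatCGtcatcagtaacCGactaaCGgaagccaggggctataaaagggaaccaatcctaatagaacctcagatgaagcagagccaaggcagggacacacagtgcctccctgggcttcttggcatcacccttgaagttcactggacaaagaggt

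Windows were matched by symbol for 9354 of the 12760 genes and had a median of 21 CG. The 909 of them that were 2-fold lower had a median of 15 CG, and the 203 that were 2-fold higher 18 CG. The 14 lower germline genes with a window had a median of 18.5 CG, the 12 lower Xlr, Mage and Pnma5 genes 7 CG and the 6 lower Rhox genes 6 CG. The lower X-linked genes thus had fewer CG at the median in these windows than the lower germline genes. The printed windows of Dazl and Smc1b were above the upper quartile of the lower germline genes (25.875 CG). Their lower quartile was 13.75 CG, and Tuba3a held 12 CG. Of all 32851 windows 94.6% held a CG, and their median was 7 CG. CG reads the same on both strands and was counted once. Methylation itself was not measured in these libraries.

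Genes of imprinted clusters differed in both directions. Of 22 genes listed as active on the maternal allele, 11 were 2-fold lower and 3 higher (median −0.87, and −0.42 over the 14 outside the feeder sets). The 11 count both Mir1906 entries described below, of which 1 lies on chromosome X, outside any of these clusters. 8 of the 22 were in the Dnmt3b1 set, among them noncoding RNAs of the Dlk1-Dio3 cluster on chromosome 12. Meg3 read 40.1 RPKM in DKO and 4.57 RPKM in DKO+Dnmt3a2, against 3.85 RPKM in DKO+Dnmt3a1, 31.6 RPKM in WT and 99.7 RPKM in DKO+Dnmt3b1. Rian read 35.1 and 4.48 RPKM, against 2.78, 27.1 and 102 RPKM in the same 3 lines. Both lines with a Dnmt3a isoform in DKO were therefore far below WT for these RNAs, and DKO+Dnmt3b1 was above it. In the TKO family Meg3 stayed between 22.8 and 62.7 RPKM with each enzyme.

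AF357359, a short transcript of the cluster, read 45.03 RPKM in DKO and 1.19 RPKM in DKO+Dnmt3a2, which corresponds to 39.6 and 1.0 reads. It fell by 4.75 ± 0.22 (limma, Benjamini-Hochberg adjusted p = 0.00788). Mir1906-1 and Mir1906-2, entries for 1 microRNA on chromosomes 12 and X, fell by 3.40 ± 0.23 and 3.25 ± 0.23 (limma, adjusted p = 0.0413 and 0.0473). They read 41.5 RPKM each in DKO, and 3.50 and 3.93 RPKM in DKO+Dnmt3a2. The values in DKO+Dnmt3a2 differ, so that not every read was shared between the entries, and the sequences around the microRNA were not compared. Both carry the mature sequence printed here, and reads within it cannot be told apart, so that the 2 calls are not taken as separate observations (RefSeq, GRCm38.p6, chr12:109544588-109544609 on the plus strand and chrX:88759485-88759506 on the minus strand; seed, bases 2 to 8, in capitals).
mmu-miR-1906: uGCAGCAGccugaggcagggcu

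A polyA library does not show whether such reads come from the mature microRNA or from a longer RNA that contains it. Other maternally active genes were lower too. H19, the noncoding RNA next to Igf2, read 157 RPKM in DKO, 65.6 RPKM in DKO+Dnmt3a2, 66.9 RPKM in DKO+Dnmt3a1 and 29.8 RPKM in WT. The receptor gene Igf2r read 41.2 and 17.9 RPKM, with 18.5 to 23.2 RPKM in the other 9 libraries, so that DKO stood above all others. The tetraspanin gene Cd81 read 143 and 70.9 RPKM, with 127 RPKM in WT.

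Cdkn1c and Phlda2, maternally expressed neighbours on chromosome 7 that restrain growth of the embryo and placenta, were higher in DKO+Dnmt3a2 than in any other library. Cdkn1c (p57) read 12.7 RPKM in DKO and 59.1 RPKM in DKO+Dnmt3a2, and between 6.16 and 14.8 RPKM in the 9 other libraries. Phlda2 read 31.5 and 110 RPKM, against 21.2 to 52.99 RPKM elsewhere. The log2 differences were 2.18 ± 0.22 and 1.79 ± 0.22 (limma, Benjamini-Hochberg adjusted p = 0.063 and 0.0759, and 0.0207 and 0.0308 without small RNA genes). Neither gene was in the Dnmt3b1 set. Of other genes of the cluster, the transporter gene Slc22a18 (1.95 and 1.64 RPKM), Tssc4 (12.05 and 11.9 RPKM) and the placental factor Ascl2 (5.27 and 3.09 RPKM) were within 2-fold. Cd81, given above and also of this cluster, was lower. Grb10, an adaptor that damps insulin signalling, read 9.93 RPKM in DKO and 33.99 RPKM in DKO+Dnmt3a2. It read 13.2 RPKM in DKO+Dnmt3a1, 27.3 RPKM in DKO+Dnmt3b1 and 6.38 RPKM in WT, and is a member of the Dnmt3b1 set.

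Of 26 genes active on the paternal allele, 4 were 2-fold higher and 5 lower, and their median of 0.22 turned to −0.04 when genes under 1 RPKM were kept. The Polycomb-related gene Sfmbt2 (3.94 and 15.0 RPKM), Mcts2 (10.2 and 30.3 RPKM), Zdbf2 (7.16 and 15.7 RPKM) and Mest (46.1 and 95.5 RPKM) were higher, and DKO+Dnmt3a2 was the highest of 11 for each of them. Dcn, which is also a fibroblast marker (8.94 and 1.16 RPKM), Dlk1 (2.12 and 0.606 RPKM), Usp29 (1.24 and 0.264 RPKM), the growth factor gene Igf2 (27.7 and 11.98 RPKM) and Sgce (6.90 and 3.20 RPKM) were lower. Zfp57, the zinc finger protein that guards methylation of imprinting control regions, read 46.5 RPKM in DKO, 136 RPKM in DKO+Dnmt3a2 and 103 to 152 RPKM in the other 9 libraries. DKO alone was low for it. It was the 1 of 8 methyl-CpG readers past 2-fold, with a list median of 0.06.

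**Figure D3:**
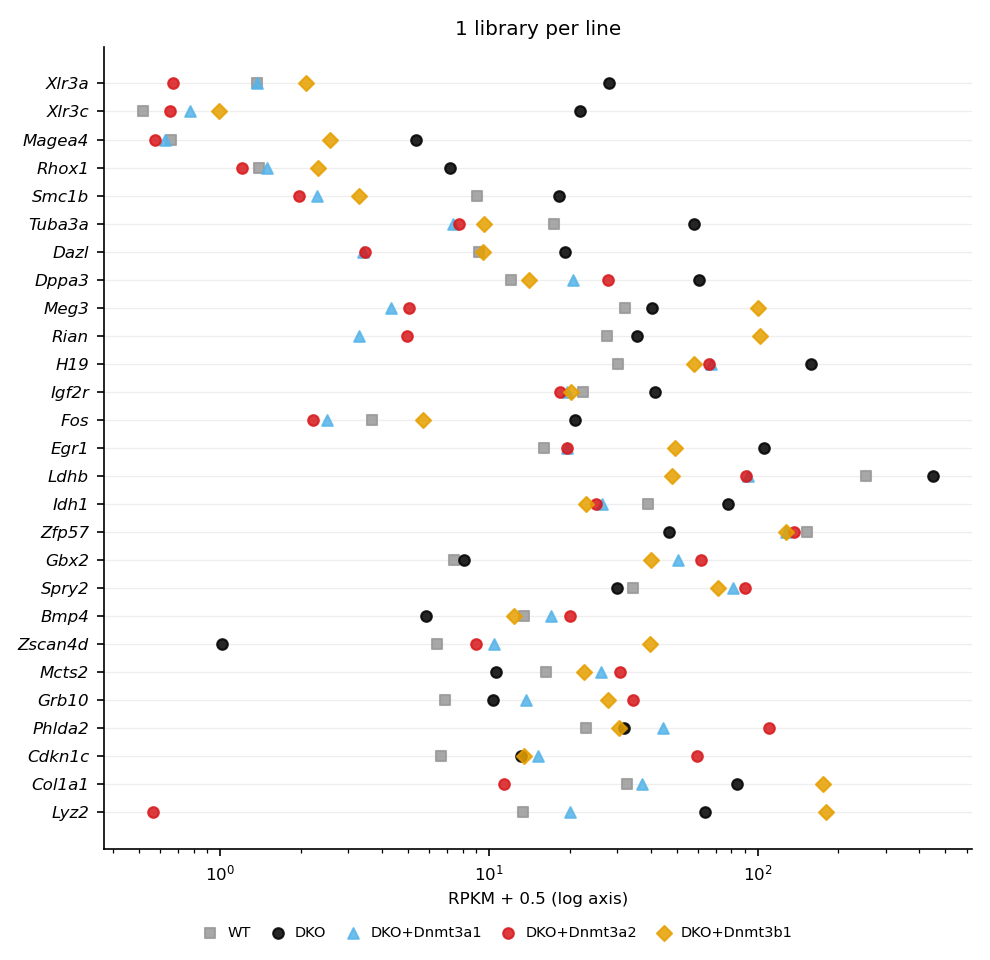
RPKM + 0.5 (log axis) of 27 genes in WT and the 4 lines of the DKO family, 1 library each. For Xlr3a, Xlr3c, Magea4 and Rhox1, DKO (black) is the highest of the 5 lines. Meg3 and Rian are low in the lines with Dnmt3a1 and Dnmt3a2, and Phlda2 and Cdkn1c are highest in DKO+Dnmt3a2 (red).

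The 12 largest drops outside the feeder sets were, beside 5 Xlr genes, Efhc2, Tuba3b and Magea4, those of Copz2, Mir6935, Gstm3 and Fos. Copz2, a coatomer subunit of vesicle transport, read 25.9 RPKM in DKO, 1.17 RPKM in DKO+Dnmt3a2 and 8.10 RPKM in WT. Mir6935 read 23.9 and 1.10 RPKM. Gstm3, a glutathione transferase, read 19.3 RPKM in DKO and 1.33 RPKM in DKO+Dnmt3a2, with 1.53 RPKM in DKO+Dnmt3a1 and 4.86 RPKM in WT. For all 4 DKO was the highest of the 11 libraries. Named after their values were seen, Igfbp4, which binds insulin-like growth factors (46.3 and 4.56 RPKM, WT 9.27 RPKM), and the cell cycle inhibitor gene Cdkn2a (46.1 and 10.2 RPKM, WT 17.4 RPKM) had the same position.

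The 2-cell-like state is a rare ES cell condition with Zscan4 transcripts. Of its 13 genes at 1 RPKM, 11 were 2-fold higher and 0 lower, with a median of 1.77, but 10 of the 13 reached 1 RPKM in DKO+Dnmt3a2 alone and so had to be higher there. Zscan4d, whose protein acts at telomeres, read 0.523 RPKM in DKO, 8.48 RPKM in DKO+Dnmt3a2, 9.97 RPKM in DKO+Dnmt3a1, 39.3 RPKM in DKO+Dnmt3b1 and 5.94 RPKM in WT. Its close copies Zscan4a (0.401 and 7.10 RPKM), Zscan4c (0.162 and 3.85 RPKM) and Zscan4f (0.147 and 3.16 RPKM) share reads with it. Tcstv3 read 3.22 and 13.6 RPKM, with 13.6 RPKM in WT as well. DKO was thus low and DKO+Dnmt3a2 near WT, while TKO and TKO+Dnmt3a2 were at 0.478 to 1.62 RPKM for Zscan4d. 12 of the 13 belonged to the Dnmt3b1 set, and limma called 0 of them in either fit. For Zscan4d the difference was 3.13 ± 0.83 (adjusted p = 0.154).

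Small RNA genes took 6 of the 12 largest gains: Mir8112, Snord93, Mir6984, Mir3069, Mir7087 and Mir6920. All but Mir8112 were listed at 0 in DKO, and Mir8112 rested on 1.0 and 26.8 reads. The others were 3 Zscan4 genes, Gbx2, Spink3 and Enox1. Gbx2, a homeobox gene that favours naive pluripotency, read 7.61 RPKM in DKO, 61.3 RPKM in DKO+Dnmt3a2, 49.9 RPKM in DKO+Dnmt3a1 and 6.94 RPKM in WT. Spink3, a protease inhibitor gene of early endoderm, read 3.30 and 22.5 RPKM, and Enox1, a cell surface oxidase, 4.31 and 28.1 RPKM, with 0.875 and 3.37 RPKM in WT. These 3 stood above WT in all lines with an enzyme put back into DKO. Outside the rule, the guidance cue gene Ntn1 read 2.06 RPKM in DKO and 12.5 RPKM in DKO+Dnmt3a2, the highest library, and Wt1, a transcription factor of kidney and mesothelium, 0.968 and 7.65 RPKM. Both were chosen after their values were seen. The difference of Ntn1 was 2.34 ± 0.26 (limma, Benjamini-Hochberg adjusted p = 0.063, and 0.0236 without small RNA genes).

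Of 26 naive pluripotency genes 3 were 2-fold higher and 1 lower (median 0.21). The higher ones included, beside Gbx2, the transcription factor gene Zfp42 (Rex1; 182 and 415 RPKM), which was highest of 11 in DKO+Dnmt3a2. Prdm14, which represses the Dnmt3 genes in naive cells, read 7.58 and 3.48 RPKM. Of 19 primed and formative genes 4 were higher and 3 lower (median 0.31). The 4 were Foxd3, Pim2, Dnmt3b and Wnt8a, and the lower ones included the Nodal targets and inhibitors Lefty2 (154 and 36.5 RPKM, WT 21.5 RPKM) and Lefty1 (223 and 88.0 RPKM, WT 50.7 RPKM). Both were highest of the libraries in DKO.

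In the Nodal and Activin pathway 4 of 21 genes were 2-fold lower and 0 higher (median −0.49). The lower ones included Lefty1, Lefty2 and Inhba, an Activin chain and a member of the Dnmt3b1 set (8.94 and 1.68 RPKM). The ligand gene Nodal itself read 25.8 and 26.1 RPKM. Of 21 LIF-STAT3 and BMP-Id genes 2 were higher and 2 lower (median −0.18, and −0.50 without the feeder sets). The lower share of 9.52% was near the 10.3% of all genes. The ligand gene Bmp4 (5.36 and 19.6 RPKM, WT 13.01 RPKM) and the BMP target Id1 (12.4 and 34.3 RPKM, WT 13.6 RPKM) were higher, with DKO+Dnmt3a2 the highest library for each. Id4 (6.11 and 1.44 RPKM) and Lif (3.15 and 1.30 RPKM) were lower. Bmp4 differed by 1.78 ± 0.24 (limma, adjusted p = 0.08, and 0.0371 without small RNA genes).

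Among 21 genes of FGF-ERK signalling 5 were 2-fold higher and 4 lower. Their median of −0.01 became positive without the low-value filter, at 5 RPKM, under both other scalings and without the feeder sets, by 0.04 to 0.35. The immediate early genes Fos (20.5 and 1.72 RPKM, WT 3.20 RPKM) and Egr1 (106 and 19.02 RPKM, WT 15.5 RPKM) were lower. DKO was the highest library for both, with at most 5.196 and 48.8 RPKM in any of the 9 others. Egr1 was 1 of 6 genes of this list in the Dnmt3b1 set. Fgf8 and Ier3 were lower as well. The ERK feedback inhibitor genes Spry2 (29.5 and 89.5 RPKM), Spry4 (23.0 and 61.8 RPKM), Spred1 (14.2 and 34.01 RPKM) and Dusp6 (16.1 and 33.7 RPKM) were higher. So was the growth regulator Myc, which read 5.22 RPKM in DKO, 32.2 RPKM in DKO+Dnmt3a2, 37.8 RPKM in DKO+Dnmt3a1 and 6.93 RPKM in WT.

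Of 17 endoderm genes 6 were 2-fold lower (35.3%, against 10.3% of all genes) and 1, Spink3, higher (median −0.50), and 6 of the 17 reached 1 RPKM in DKO alone. The lower ones included the basement membrane genes Col4a1 (18.3 and 6.76 RPKM) and Col4a2 (13.2 and 3.796 RPKM) and the receptor gene Pdgfra (3.39 and 0.603 RPKM), and 9 of the 17 were in the Dnmt3b1 set. Bmp4 was the 1 of 5 mesoderm genes past 2-fold (median 0.39). Of 9 neural genes 1 was 2-fold lower (11.1%, near the 10.3% of all genes) and 0 higher (median 0.11). Of 14 trophoblast genes 2 were lower (14.3%, also near that share), with a median of −0.32. They were the placental homeobox gene Esx1 (4.98 and 0.954 RPKM) and the hormone gene Sct (2.16 and 0.742 RPKM). Of 6 Hox genes 1, Hoxc8, was lower (1.00 and 0.117 RPKM; median −0.80), and 3 of the 6 were in the Dnmt3b1 set.

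Among chromatin genes, 3 of 29 Polycomb subunits were 2-fold higher and 1 lower. Their median of −0.04 was 0.04 to 0.07 at 5 RPKM and under both other scalings. Jarid2, which guides the complex to its targets (55.2 and 157 RPKM), E130012A19Rik (42.2 and 112 RPKM) and Eed, a core subunit (46.7 and 110 RPKM), were higher, and the methyltransferase gene Ezh1 (24.4 and 9.38 RPKM) was lower. Of 19 genes of retroelement silencing 2 were higher and 0 lower (median 0.36), with 18 of 19 above 0. Trim28, the corepressor of zinc finger proteins such as Zfp57, read 305 RPKM in DKO and 677 RPKM in DKO+Dnmt3a2, and Smarcad1, a chromatin remodeller, 23.1 and 56.8 RPKM. Of 14 Tet and base excision genes 2 were lower (14.3%, near the 10.3% of all genes; median 0.08). Idh1 (77.0 and 24.7 RPKM, WT 38.7 RPKM) and Idh2 (133 and 48.7 RPKM, WT 79.3 RPKM) make the cofactor that Tet enzymes need, and both were highest in DKO. The demethylating enzyme gene Tet2 read 9.32 and 18.5 RPKM.

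**Figure D4:**
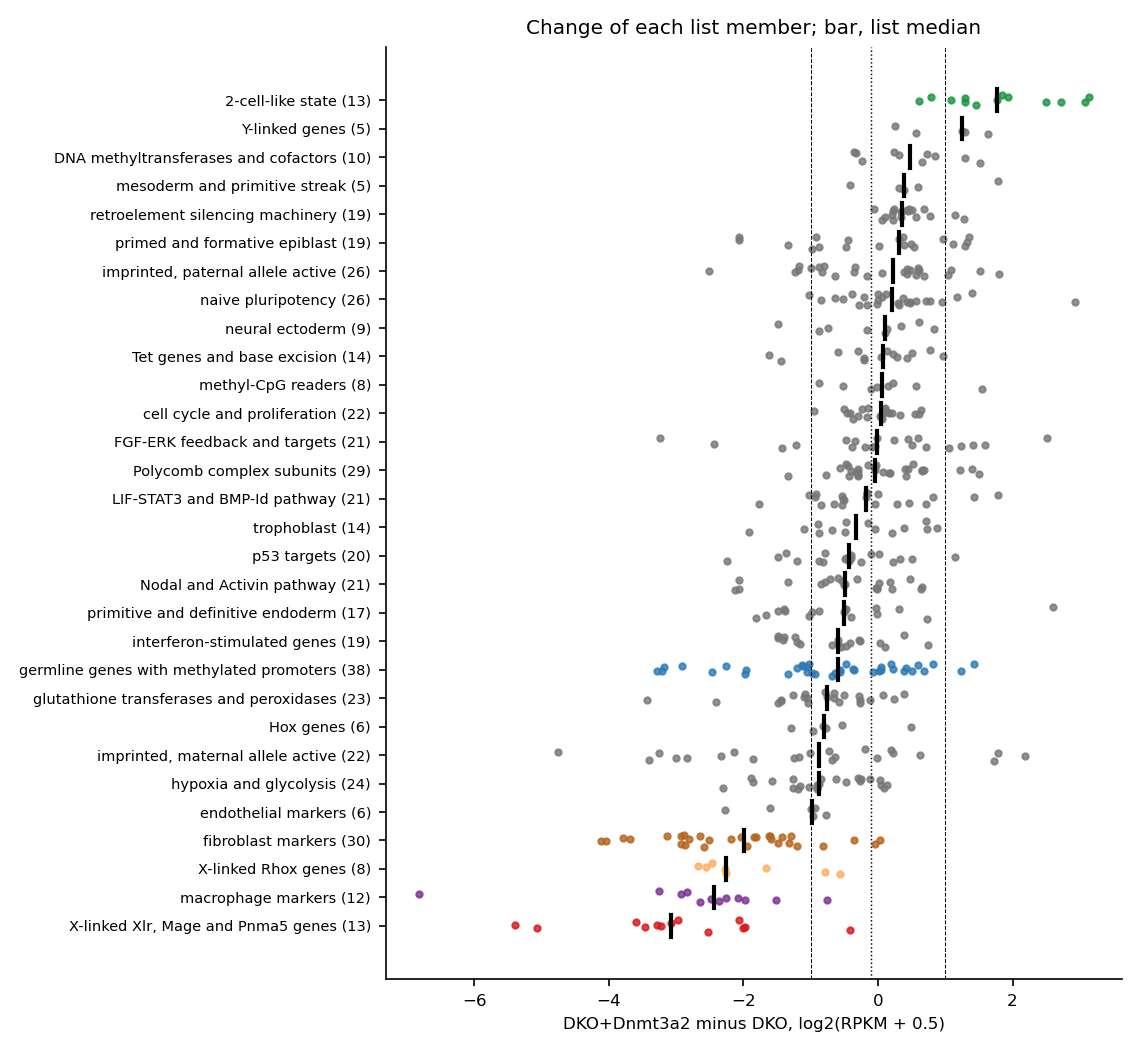
Difference between DKO+Dnmt3a2 and DKO on log2(RPKM + 0.5) for each member at 1 RPKM of the 30 gene lists, 1 point a gene, ordered by list median (bars). The dotted line is the median of all genes (−0.10) and the dashed lines mark 2-fold. The X-linked, macrophage and fibroblast lists lie lowest, and the 2-cell-like and Y-linked lists highest.

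Genes of energy and redox metabolism were past 2-fold in 1 direction only. Of 24 genes of hypoxia and glycolysis 9 were 2-fold lower (37.5%, against 10.3% of all genes) and 0 higher. Their median was −0.88, and none was in the Dnmt3b1 set. limma called 0 of them over all genes and 1 without small RNA genes. Ldhb, a lactate dehydrogenase, read 447 RPKM in DKO, 90.2 RPKM in DKO+Dnmt3a2, 91.5 RPKM in DKO+Dnmt3a1 and 253 RPKM in WT. The glycolytic genes Aldoa (1408 and 583 RPKM, WT 1638 RPKM) and Hk1 (39.7 and 13.1 RPKM, WT 37.4 RPKM) and the collagen hydroxylase gene P4ha1 (42.6 and 11.2 RPKM, WT 45.5 RPKM) were near WT in DKO and below it in DKO+Dnmt3a2. Between the 2 libraries of TKO+Dnmt3a2 these genes differed too. Aldoa read 769 and 1322 RPKM there and P4ha1 14.7 and 29.9 RPKM. Of 23 glutathione transferases and peroxidases 10 were lower (43.5%) and 0 higher (median −0.75), with 0 and 1 called in the same fits. They included, beside Gstm3, the peroxidase genes Gpx2 (19.2 and 3.22 RPKM, WT 1.14 RPKM) and Gpx3 (27.6 and 9.47 RPKM, WT 10.97 RPKM) and the transferase gene Gstm1 (56.8 and 20.6 RPKM, WT 29.1 RPKM).

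Of 20 p53 targets 4 were 2-fold lower and 1 higher (median −0.43). Cdkn1a (p21), which halts the cell cycle, read 86.0 RPKM in DKO and 17.7 RPKM in DKO+Dnmt3a2, and 47.4 to 155 RPKM in the 9 other libraries. It was a member of the Dnmt3b1 set. Btg2, an antiproliferative gene (27.9 and 9.58 RPKM), and Sesn1, a stress response gene (9.75 and 3.94 RPKM), were lower, and Perp, a gene of cell adhesion (6.36 and 14.7 RPKM), was higher. Of 19 interferon-stimulated genes 7 were lower (36.8%) and 0 higher (median −0.59), and DKO+Dnmt3a2 was the lowest of 11 for 12 of them. They included the antigen presentation genes B2m (66.2 and 23.5 RPKM) and Tap1 (4.96 and 1.87 RPKM) and the signal transducer Stat2 (19.2 and 6.58 RPKM), and 5 of the 19 were in the Dnmt3b1 set. None of 22 cell cycle genes was past 2-fold, and their median of 0.05 was −0.07 under quantile normalization. Of 5 Y-linked genes 3 were higher (median 1.25): Ddx3y, Uba1y (5.42 and 14.0 RPKM) and Uty (3.72 and 9.51 RPKM).

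DKO+Dnmt3a1 carries the longer isoform in the same background, so that the 2 isoforms could be set side by side, without replicates. Between DKO+Dnmt3a2 and DKO+Dnmt3a1 40 of 12354 genes (0.324%) were 2-fold higher and 309 (2.5%) lower. The shares between 2 libraries of 1 genotype given before also cover all genes. The 2.5% lower was above each of them, and the 0.324% higher was below each. Outside the feeder sets the counts were 35 and 81 of 11594 (0.302% and 0.699%), for which no same-genotype share was taken. Of these genes 32 and 36 were small RNA genes. The 3 other higher genes were Cdkn1c (14.8 RPKM in DKO+Dnmt3a1 and 59.1 RPKM in DKO+Dnmt3a2), Phlda2 (44.0 and 110 RPKM) and Acbd7, an acyl-CoA binding protein (0.449 and 1.501 RPKM). The 45 other lower genes included the chemokine gene Cxcl10 (4.34 and 0.568 RPKM), the histocompatibility gene H2-D1 (23.954 and 7.56 RPKM) and the stress genes Ddit3 (41.2 and 16.5 RPKM) and Gadd45g (41.7 and 18.1 RPKM). limma called 1 of 14229 genes between these lines (0.00703%), Lyz2 (−5.14, Benjamini-Hochberg adjusted p = 0.0288), with 34 higher and 353 lower at an unadjusted p under 0.05.

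Against the shared DKO library the 3 enzymes gave unlike counts. DKO+Dnmt3a1 had 379 of 12896 genes 2-fold higher (2.94%) and 844 lower (6.54%), and DKO+Dnmt3b1 1363 of 13345 higher (10.2%) and 1270 lower (9.52%). All 3 comparisons share that library, so that a high or low value in DKO enters each. For the Xlr, Mage and Pnma5 genes the medians were −3.08 with Dnmt3a2, −2.90 with Dnmt3a1 and −1.98 with Dnmt3b1. For germline genes they were −0.60, −0.45 and −0.64, and for fibroblast markers −1.99, −0.56 and 1.5. For interferon-stimulated genes the medians were −0.59, 0.08 and 0.98, and for hypoxia and glycolysis −0.88, −0.87 and −1.3.

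TKO+Dnmt3a2 against TKO is the same isoform in cells without Dnmt1 and shares no library with the DKO arms. Its 2 libraries had 3.06% and 1.95% of genes 2-fold higher than TKO and 2.82% and 1.41% lower. In this family Dnmt3a read 4.24 RPKM in TKO and 21.8 and 11.1 RPKM in the 2 libraries of TKO+Dnmt3a2. Of the 283 genes 2-fold higher in DKO+Dnmt3a2 and measured in both families, 5 (1.77%, against 0.704% of all 12505 genes) were 2-fold higher in both TKO+Dnmt3a2 libraries, which is 5.68% of the 88 that were so there. They were Dnmt3a itself, Accsl, Gm10324, Snord93 and Mir6381, all named after their values were seen. Of the 1224 lower genes 33 (2.7%, against 0.56% of all) were lower in both TKO+Dnmt3a2 libraries, 47.1% of the 70 that were so there. In the opposite direction stood 2 of the higher and 11 of the lower genes. Pearson's r between the differences in the families was 0.26 over 12505 genes, and genes are no independent replicates of the lines.

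Germline and X-linked genes were among the 33. Dazl read 42.2 RPKM in TKO and 6.87 and 5.55 RPKM in TKO+Dnmt3a2, differences of −2.53 and −2.82 beside −2.47 in DKO. The germ cell transcription factor gene Sohlh2 differed by −1.35 and −1.88 (−1.96 in DKO) and Dppa3 by −1.62 and −1.38 (−1.12 in DKO). Smc1b was lower in DKO but read 16.9 RPKM in TKO and 10.8 and 15.9 RPKM in TKO+Dnmt3a2. Xlr3a read 25.7 RPKM in TKO and 12.6 and 20.8 RPKM after Dnmt3a2 was put back, against 0.169 RPKM in DKO+Dnmt3a2. As lists, the Xlr, Mage and Pnma5 genes had a median of −0.59 and −0.47 in the 2 TKO+Dnmt3a2 libraries against −3.08 in DKO, the Rhox genes −0.46 and −0.21 against −2.26, and the germline genes 0.18 and 0.23 against −0.60. Most members of both X-linked lists were in the count through DKO alone, so that these medians are no test of a difference. The fibroblast markers had 0.68 and −0.17 in these libraries, and their sum was 1200 RPKM in TKO and 1848 and 1132 RPKM in TKO+Dnmt3a2.

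The difference between the families was tested for each gene in limma as an interaction. It was called for 1 of 14229 genes (0.00703%), Lyz2, with 1500 at an unadjusted p under 0.05. Lyz2 read 28.7 RPKM in TKO and 30.5 and 25.8 RPKM in TKO+Dnmt3a2. For AF357359 the interaction was −4.03 ± 0.29 (limma, Benjamini-Hochberg adjusted p = 0.0947). No X-linked or germline gene passed this test. Within the TKO family limma called 0 genes, with 1227 at an unadjusted p under 0.05 and a smallest adjusted p of 0.324.

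**Figure D5:**
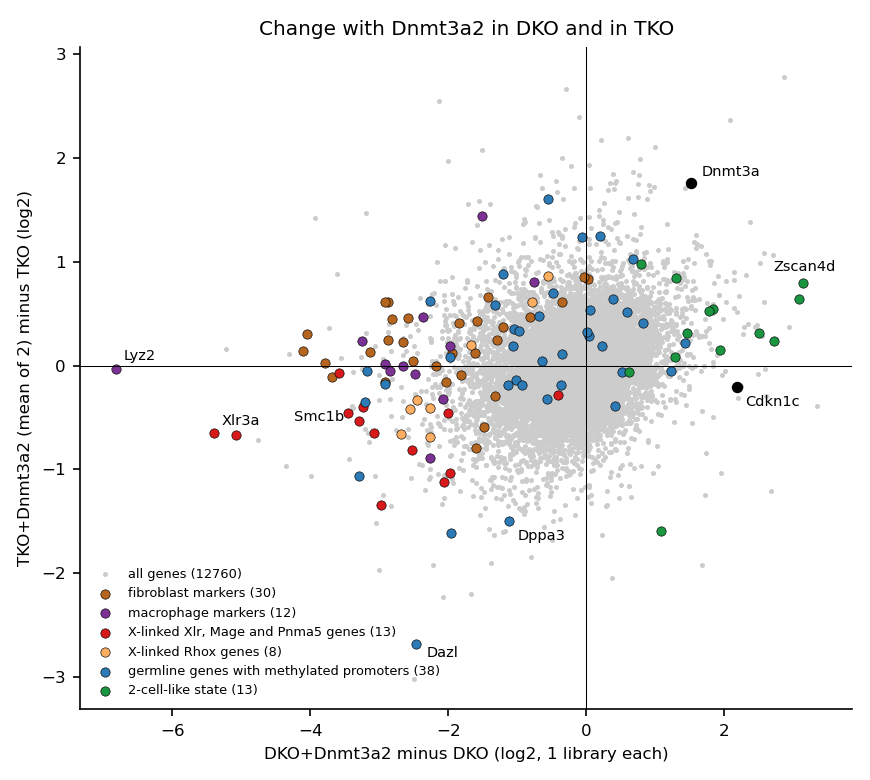
Difference with Dnmt3a2 in TKO (mean of 2 libraries minus 1, log2) against that in DKO (1 library each, log2) for the 12760 genes, with 6 gene lists in colour. Xlr3a and Smc1b lie far to the left and less far below the horizontal line than Dazl, and Lyz2 (−6.82 in DKO) lies leftmost.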

How the data were processed

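PolyA RNA of the 11 libraries had been prepared without strand marking and, per the submitters' processing notes, handled with bcl2fastq 1.8.4, STAR 2.4.0 and the mm9 genome. The authors deposited RPKM with 3 decimals for 24016 genes, 1 RefSeq transcript each. The counting tool and the gene lengths are not given in the sources used here. Each column was matched to its sample by name. Steps of 1 read in short genes gave the implied read totals, with 99.2 to 100.0% of values whole within 0.05 reads, and 1 read in a transcript of 2 kb is 0.0153 to 0.023 RPKM.

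Differences were taken on log2(RPKM + 0.5) over genes at 1 RPKM or more in either arm, a scale that understates differences of low genes. With 1 library an arm they have no replicate check of their own. Tests used limma 3.58.1 in R 4.3.3, with 9 group means, an intensity trend and genes at 1 RPKM in any library. Its spread comes from the 2 libraries of each of TKO+Dnmt3a1 and TKO+Dnmt3a2, and p-values were adjusted by Benjamini-Hochberg with a threshold of 0.05. Reads of RPKM were not turned into counts for a test. The script was tested on simulated data.

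Named genes were the 12 largest drops, the 12 largest gains and the 12 largest drops outside the feeder sets, without predicted or accession-like names, plus limma calls, the Dnmt genes and up to 2 members in each direction of each of the 30 lists, and its defining members. Some genes the rule names are not reported here. The comparison, lists and rule were chosen with earlier results of these data known. Chromosomes were found for 23872 of 24016 genes, 23159 by accession. Promoter windows and the microRNA sequence came from RefSeq tables on GRCm38.p6, not the build of the files, and were matched by symbol. Alternatives were the pseudocount (0.1 and 1), no low-value filter or 5 RPKM, quantile and median ratio scaling, the feeder sets left out, small RNA genes left out (added later), no trend, a replicate block and leaving out 1 library. In the alternative without the feeder sets, endothelial markers outside the Dnmt3b1 set stayed in.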

Additional observations from a re-analysis of the deposited data

Results flagged for a closer look

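Lyz2, the myeloid lysozyme gene, differed between the families. The difference with Dnmt3a2 in DKO minus that in TKO was −6.79 ± 0.35 on the log2 scale (limma's interaction, Benjamini-Hochberg adjusted p = 0.0293). It was lower in the 1 DKO+Dnmt3a2 library, while the 2 TKO+Dnmt3a2 libraries (30.5 and 25.8 RPKM) lay on either side of TKO (28.7 RPKM). No gene was called when any 1 of the 4 libraries of TKO+Dnmt3a1 and TKO+Dnmt3a2 was left out, without the trend or with a pseudocount of 1. The 19 macrophage markers other than Lyz2 summed to 55.7 RPKM in DKO and 13.08 RPKM in DKO+Dnmt3a2, against 33.8 RPKM in TKO and 53.2 and 62.2 RPKM in TKO+Dnmt3a2. The part of these cells in the difference was not tested.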

How the results depend on the processing

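Genes 2-fold higher numbered 324, and 207 at 5 RPKM or 492 after quantile normalization. Lower genes numbered 1314, and 736 and 868 in the same settings. limma's calls depended on which genes entered the fit. Lower calls numbered 4, and were 13 with a pseudocount of 0.1, 42 without the filter, 160 at 5 RPKM, 147 without small RNA genes, 2 under quantile normalization, median ratio scaling or no trend, 1 without the feeder sets, and 0 to 1 when a library was left out. Higher calls numbered 0, and were 1, 33, 25 and 18 in the first 4 of these settings. The interaction, called for 1 gene, gave 0 with a pseudocount of 1, without the feeder sets, without the trend and, at 0 to 0, whenever a library was left out, 74 without the filter and 9 at 5 RPKM. With a replicate block the counts were 393 lower, 86 higher and 51 for the interaction. Replicate numbers follow the order of deposit and name samples only, and the deviations of the 2 replicated lines correlated at r = 0.09 across 14229 genes, so that the block is no pairing. Of 686 values of 58 named genes in limma, none changed direction, 23 lost a call and 76 gained one. Most of these values could not change direction. Filters, trend, block and left-out libraries leave the differences as they are, and a pseudocount keeps their sign, so that the scalings alone could reverse them. Of 207 list medians 160 stayed within the spread, 37 went outside it and 10 changed sign: paternal imprinted genes −0.04 without the filter; FGF-ERK genes 0.04 without the filter, 0.35 at 5 RPKM, 0.10 and 0.09 under quantile and median ratio scaling and 0.24 without the feeder sets; Polycomb subunits 0.07 at 5 RPKM, 0.04 and 0.07 under the same scalings; cell cycle genes −0.07 under quantile normalization. The causes were not tested. Other filters change the number of genes adjusted over and also how far limma pools the spread across genes. Without the filter more genes were adjusted over (20876 against 14229), and yet more were called. Depth limits short and low genes, where 1 read decides a value.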
